A study of Mus musculus with 2 samples.

Results

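The genes of chemokines and of their receptors were examined on 2 two-colour microarrays of mouse lymphocytes polarized in culture. A gene was a member when its single annotated symbol began with Ccl, Cxcl, Xcl, Cx3cl, Ccr, Cxcr, Xcr or Cx3cr followed directly by a digit. That rule took 55 of the 17493 named genes measured, 37 ligands and 18 receptors, from 66 probes.

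Chemokines are small secreted proteins that guide cells along a gradient, and each binds one or several membrane-spanning receptors that signal through inhibitory G proteins. T helper cells change their receptors as they differentiate. Ccr7, which binds Ccl19 and Ccl21, keeps naive cells in lymph nodes, Cxcr3 is the usual receptor of Th1 cells, Ccr4 and Ccr8 are known from Th2 cells, and Ccr6 with its ligand Ccl20 is known from Th17 cells.

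One array was hybridised with RNA of Th1-polarized cells and RNA of Th0 cells, the other with RNA of Th17-polarized cells and RNA of Th0 cells, so each comparison rests on 1 array. Per the labels, lymphocytes of both arrays came from a TRP-1 mouse, in which T cells are directed at an antigen of melanoma, and the polarized population carried Cy5 and the Th0 population Cy3. The medium, the days in culture, any sort of the cells, and whether the arrays shared their Th0 RNA are not given in the sources used here. No value has a replicate or a dye swap, no test was possible, and in bulk RNA fewer cells of a type and less RNA per cell cannot be told apart.

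Values are log2 ratios of the channels as deposited, so 1 and −1 are 2-fold differences, and which population is the numerator is not settled. The titles and dyes name the polarized cells over Th0. On that reading a gene with a negative value was lower in the polarized population. Ifng, the gene of interferon gamma and the cytokine of the Th1 fate, lay on the negative side at −2.02 on the Th1 array, and the Th17 cytokine genes Il17a at −5.37 and Il22 at −5.79 on the Th17 array. The negative side of the Th1 array was not particular to Th1 genes, since Il22 (−2.53), the Th2 transcription factor gene Gata3 (−1.49), Tbx21 (−1.25), the transcription factor gene of the Th1 fate, Il21 (−1.23) and Il23r (−1.02) were there too. Below, the Ifng side means negative on the Th1 array, and the Il17a side means negative on the Th17 array and in the difference (Th17 array minus Th1 array, in which Il17a lay at −5.67). Read as titled, these sides hold genes that are lower in the polarized cells (in Th17 than in Th1 cells for the difference), and with the sign turned, genes that are higher. The labelled cell type could not be checked by level, since the table holds ratios alone.

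Neither array was centred exactly on 0. Its own median would raise every value of the Th1 array by 0.11 and of the Th17 array by 0.045, and control genes would lower the Th1 array by 0.25 and raise the Th17 array by 0.016. The most repeated value, read as equal signal in both channels, would raise them by 0.85 and 0.43. Of the members, 46 had 1 probe. Between probes of the same gene the pooled SD was 0.51 (Th1 array), 0.49 (Th17 array) and 0.52 (difference) over 5885 genes, which is the sole repeat measure and says nothing of the spread between samples.

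Over the members, 9 of 55 differed at least 2-fold on the Th1 array (16.4%, against 10.2% of all named genes), 19 on the Th17 array (34.5%, against 8.42%) and 17 in the difference (30.9%, against 8.15%). Of those on the Th1 array, 4 were negative (6.92% of all genes were that far negative) and 5 positive (3.28%). The corresponding counts on the Th17 array were 10 negative (5.52% of all genes) and 9 positive (2.9%). In the difference they were 10 negative (3.61%) and 7 positive (4.53%). Centring on the control genes turned the split to 10 negative and 3 positive on the Th1 array. In the difference it gave 8 negative and 11 positive. Of the 17493 named genes, 2046 were then that far negative and 318 positive on the Th1 array, and 409 and 1363 in the difference. Centring on the most repeated value turned the split to 1 and 17 on the Th1 array and to 6 and 13 on the Th17 array. Of all named genes, 297 were then that far negative and 5212 positive on the Th1 array, and 486 and 1429 on the Th17 array. The shares of all genes given above do not apply to these splits.

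**Figure D1:**
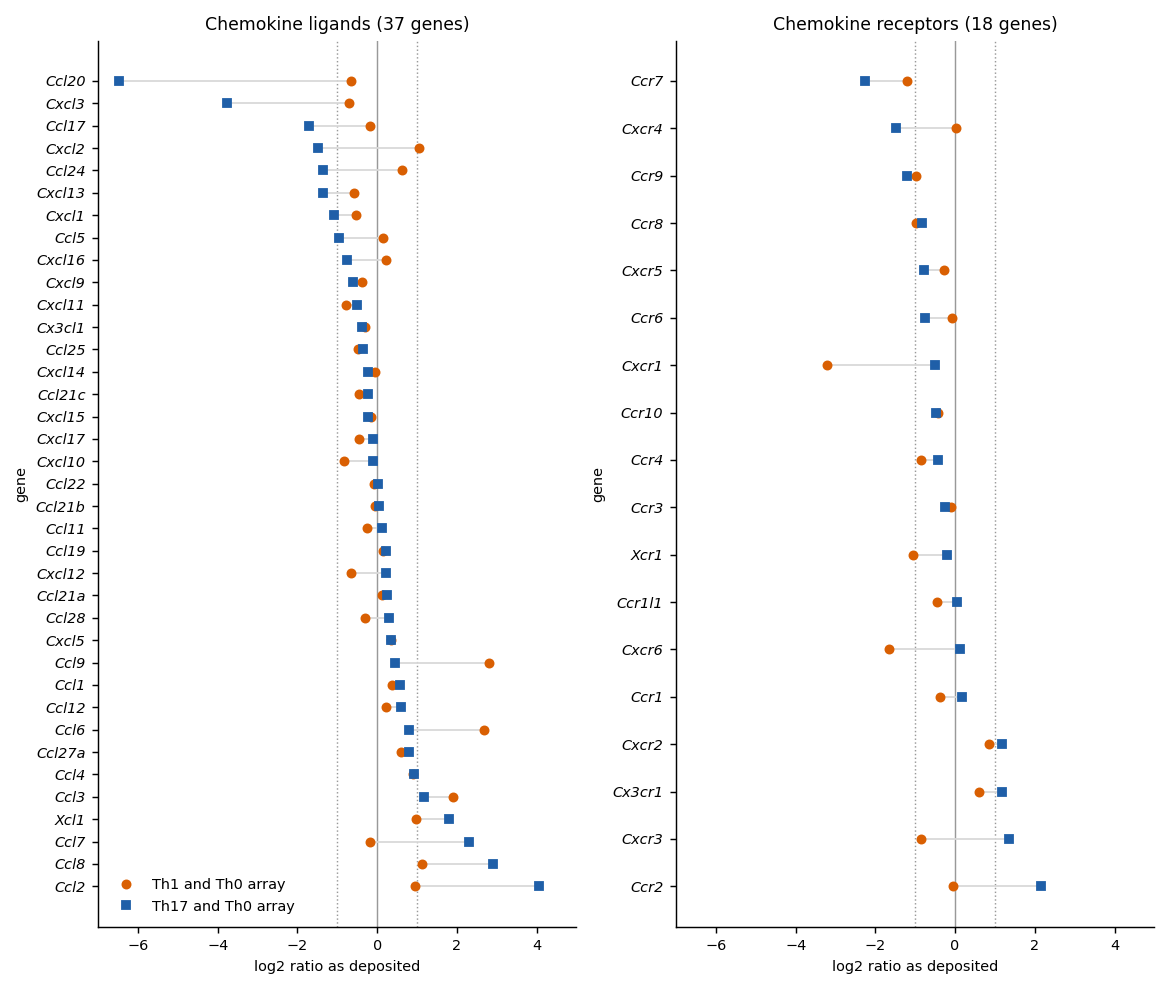
Log2 ratio, as deposited, of each of the 37 ligand genes (left) and 18 receptor genes (right) on the Th1 and Th0 array (circles) and the Th17 and Th0 array (squares), 1 value per gene and array, with dotted lines at 2-fold. Ccl20 at −6.48 and Cxcl3 at −3.76 stand furthest left on the Th17 array, Ccl2 at 4.06 and Ccl8 at 2.90 furthest right, and Cxcr1 at −3.21 furthest left on the Th1 array.

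Among the ligands, the gene of Ccl20, which attracts Ccr6-bearing T cells, B cells and dendritic cells, had the most distant value of all members. It lay at −0.67 (1.59-fold) on the Th1 array and at −6.48 (89.5-fold) on the Th17 array, a difference of −5.82 (56.5-fold). It was thus on the side of Il17a and further from 0 than Il17a itself.

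Of 4 members that are ligands of the neutrophil receptor Cxcr2, 3 lay at least 2-fold on the same side of the Th17 array. Ppbp, a further Cxcr2 ligand outside the symbol rule, lay at 1.38 on the Th1 array. On the Th17 array it lay on the opposite side, at 1.27 (2.41-fold). Cxcl3 lay at −0.72 on the Th1 array and −3.76 (13.5-fold) on the Th17 array. Cxcl2 lay at 1.04 and −1.49, at least 2-fold apart on opposite sides of the arrays, a difference of −2.53 (5.77-fold). Cxcl1 lay at −0.53 and −1.10 (2.14-fold), while Cxcl5, another ligand of Cxcr2, lay at 0.36 and 0.34, below 2-fold on each array. Cxcl15, a chemokine known from the lung whose gene lies between those of Cxcl3 and Cxcl1, lay at −0.15 and −0.24. Cxcl3, Cxcl2 and Cxcl1 were thus the genes of this run of neighbours at least 2-fold on the Il17a side of the Th17 array. No centring tried could turn that side for them, since no shift of the Th17 array exceeded 0.43. Centring on the most repeated value took Cxcl1 to −0.67, below 2-fold. Centring on the control genes took Cxcl2 to 0.79 on the Th1 array, also below 2-fold.

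The 250 bases before the start sites of these genes are shown because Ccl20, Cxcl3, Cxcl2 and Cxcl1 lay at least 2-fold on the Il17a side and share a sequence feature there. The sequences are from RefSeq on GRCm38.p6, each on the plus strand, for Ccl20 at chr1:83116516-83116765, Cxcl3 at chr5:90785851-90786100, Cxcl2 at chr5:90903649-90903898 and Cxcl1 at chr5:90890995-90891244, written 5′ to 3′ and ending at the base before the start. Capitals mark matches on either strand to the NF-kappaB consensus.
Ccl20: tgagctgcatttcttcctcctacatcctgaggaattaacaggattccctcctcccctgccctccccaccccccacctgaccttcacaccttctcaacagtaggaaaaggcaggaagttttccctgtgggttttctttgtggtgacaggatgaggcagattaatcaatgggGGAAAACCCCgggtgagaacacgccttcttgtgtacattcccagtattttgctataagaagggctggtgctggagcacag
Cxcl3: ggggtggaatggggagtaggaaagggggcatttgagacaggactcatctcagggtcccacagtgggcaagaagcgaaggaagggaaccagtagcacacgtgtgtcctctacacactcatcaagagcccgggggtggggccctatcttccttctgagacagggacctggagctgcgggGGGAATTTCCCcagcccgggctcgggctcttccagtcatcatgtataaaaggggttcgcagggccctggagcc
Cxcl2: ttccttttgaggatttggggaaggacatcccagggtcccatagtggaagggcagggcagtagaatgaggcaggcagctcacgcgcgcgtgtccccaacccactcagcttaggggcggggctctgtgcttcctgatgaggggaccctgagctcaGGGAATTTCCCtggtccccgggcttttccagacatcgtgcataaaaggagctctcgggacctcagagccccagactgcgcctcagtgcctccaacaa
Cxcl1: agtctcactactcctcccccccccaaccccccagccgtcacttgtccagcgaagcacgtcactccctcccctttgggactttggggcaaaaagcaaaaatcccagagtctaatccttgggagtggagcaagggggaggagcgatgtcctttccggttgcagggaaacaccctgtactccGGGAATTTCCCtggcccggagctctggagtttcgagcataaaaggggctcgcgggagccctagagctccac

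Windows of this length matched 26 of the 37 ligand genes and 15 of the 18 receptor genes. The NF-kappaB consensus occurred in 6 of 29 ligand windows (20.7%), those of Ccl20, Cxcl1, Cxcl2, Cxcl3, Ccl9 and Cxcl10, in 2 of 16 receptor windows, those of Ccr3 and Ccr6, and in 1281 of all 32851 windows (3.90%). Cxcl3, Cxcl2 and Cxcl1 held the same run of 11 bases, in which a match on each strand overlaps the other, ending 62, 86 and 60 bases before the start. Of the ligand genes with a window, the consensus was found in 4 of 6 at least 2-fold on the Il17a side of the Th17 array, in 0 of 3 at least 2-fold on the opposite side (Ccl3, Ccl8 and Xcl1) and in 2 of 17 below 2-fold (Ccl9 and Cxcl10). Ccl2 (4.06) and Ccl7 (2.30) on the opposite side and Ccl24 (−1.37) on the Il17a side had no window and were not searched. Of the 4 with the consensus on the Il17a side, Cxcl3, Cxcl2 and Cxcl1 are neighbours that share the same run, so they are not separate cases. The motif was chosen after the values were seen. An AP-1 motif, TGANTCA, occurred in 3 ligand windows (Ccl27a, Ccl9 and Cxcl10), 10.3% against 6.75% of all windows, and in those of Ccr3 and Ccr4. A STAT motif, TTCNNNGAA, occurred in those of Ccl17 and Cxcl14 (6.90% against 7.02%) and in those of Ccr6 and Ccr1l1. Both strands were searched, matches to different motifs may overlap, and a match is a description of letters and not a bound site.

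Of the other ligands on the Il17a side of the Th17 array, Ccl17, a ligand of the Th2 receptor Ccr4, lay at −0.18 on the Th1 array and −1.72 (3.29-fold) on the Th17 array. Ccl22, which shares that receptor, lay at −0.07 and 0.017. The eosinophil attractant Ccl24 lay at 0.63 and −1.37, a difference of −2.0 (3.998-fold). Cxcl13, which draws B cells into follicles through Cxcr5, lay at −0.57 and −1.36 (2.57-fold). Ccl5, made by effector and cytotoxic T cells, lay at 0.15 and −0.97 and reached 2-fold in the difference alone, at −1.11, or −0.84 and below 2-fold with centring on the control genes. On the Th17 array, centring on the most repeated value took Ccl24 (−0.94) and Cxcl13 (−0.94) below 2-fold. The ligands of this group thus have receptors known from neutrophils, B cells, eosinophils and T helper cells alike.

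On the opposite side of the Th17 array stood 3 monocyte attractants whose genes are close neighbours. Ccl2 lay at 0.95 on the Th1 array and at 4.06 (16.7-fold) on the Th17 array. Ccl7 lay at −0.17 and 2.30 (4.91-fold). Ccl8 lay at 1.13 and 2.90 (7.46-fold). Their differences were 3.12, 2.47 and 1.77, the 3 positive ligand differences at least 2-fold in size. In the same run of 6 genes, Ccl12, a mouse ligand of Ccr2 too, lay at 0.22 and 0.60, the eosinophil attractant Ccl11 at −0.25 and 0.12, and Ccl1, the ligand of Ccr8, at 0.36 and 0.57. The run thus holds genes far from 0 beside genes close to it.

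In a second run of neighbours, Ccl5, Ccl9, Ccl6, Ccl3 and Ccl4, the middle 3 passed 2-fold on the Th1 array, where Ccl5 at the start of the run lay at 0.15. Ccl9 and Ccl6, mouse chemokines of myeloid cells that bind Ccr1, lay at 2.81 (6.99-fold) and 2.67 (6.36-fold) on the Th1 array and at 0.45 and 0.79 on the Th17 array, with differences of −2.35 and −1.88. Ccl3, an inflammatory chemokine of macrophages and activated T cells, lay at 1.90 (3.72-fold) and 1.17 (2.24-fold). Ccl4, close to it in kind and place, lay at 0.91 and 0.93 as the mean of 2 probes (SD 0.11 and 0.30), just below 2-fold. On the Th1 array the 5 ligands at least 2-fold apart were Ccl9, Ccl6, Ccl3, Ccl8 and Cxcl2, all opposite to Ifng. They were 13.5% of the ligands, beside 3.28% of all named genes that far positive. On the Ifng side 0 ligands were at least 2-fold, beside 6.92% of all named genes. With centring on the control genes these counts were 3 and 2, beside 318 and 2046 of the 17493 named genes on those sides. Ccl8 (0.88) and Cxcl2 (0.79) then fell below 2-fold, and Cxcl10 (−1.09) and Cxcl11 (−1.03) passed it.

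**Figure D2:**
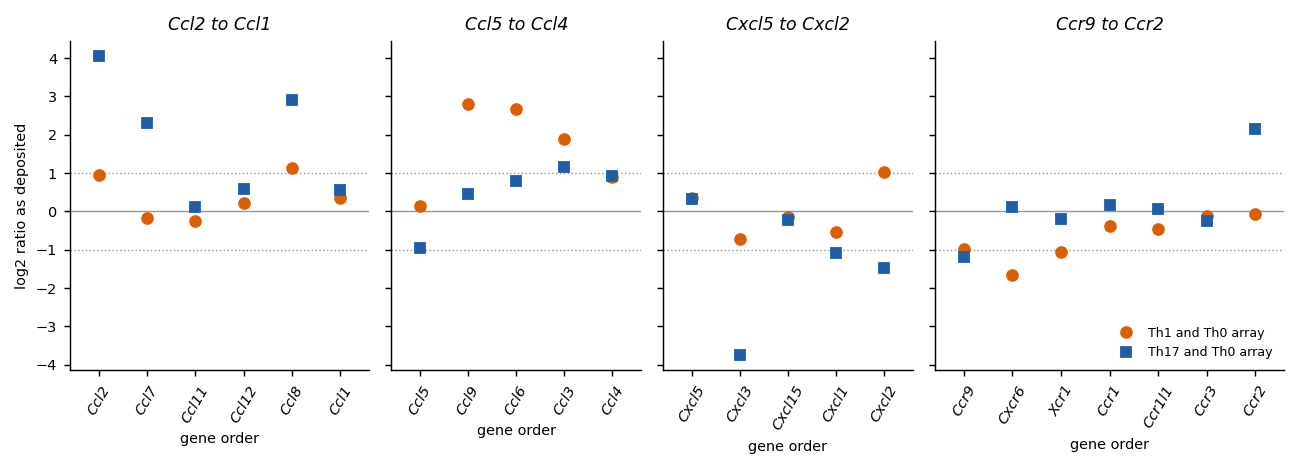
Log2 ratio, as deposited, of members in 4 runs of neighbouring genes, in their order along the chromosome, on the Th1 and Th0 array (circles) and the Th17 and Th0 array (squares). Ccl2, Ccl7 and Ccl8 stand high on the Th17 array and Ccl9 and Ccl6 on the Th1 array, while Cxcl3 at −3.76 stands low on the Th17 array.

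Windows of Ccl8, Ccl9 and Ccl6 are shown for the runs opposite to the lineage cytokines, with the same consensus in capitals. Ccl8 lies on the plus strand at chr11:82114935-82115184, and Ccl9 at chr11:83578637-83578886 and Ccl6 at chr11:83593088-83593337 on the minus strand, given 5′ to 3′ along the gene.
Ccl8: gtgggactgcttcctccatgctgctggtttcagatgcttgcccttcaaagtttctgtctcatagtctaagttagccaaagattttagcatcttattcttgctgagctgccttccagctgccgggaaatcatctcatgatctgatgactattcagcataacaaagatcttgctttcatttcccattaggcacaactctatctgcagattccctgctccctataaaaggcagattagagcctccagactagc
Ccl9: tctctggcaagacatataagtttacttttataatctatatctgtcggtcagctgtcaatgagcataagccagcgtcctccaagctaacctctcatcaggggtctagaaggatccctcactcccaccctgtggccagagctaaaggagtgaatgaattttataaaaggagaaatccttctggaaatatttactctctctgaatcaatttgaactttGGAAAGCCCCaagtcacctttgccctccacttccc
Ccl6: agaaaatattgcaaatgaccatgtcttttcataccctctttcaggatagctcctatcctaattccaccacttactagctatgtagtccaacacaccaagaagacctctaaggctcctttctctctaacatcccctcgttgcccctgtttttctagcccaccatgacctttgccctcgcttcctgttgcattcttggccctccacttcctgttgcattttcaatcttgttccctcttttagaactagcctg
The windows of Ccl8 and Ccl6 held 0 matches and that of Ccl9 held 1.

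Markers of other cell types were also far from 0 on the Th1 array, as the plot of marker lists shows. For the counts below, 6.92% of all named genes were at least 2-fold negative and 3.28% positive on the Th1 array. On the Th17 array these shares were 5.52% and 2.9%. Of 15 measured myeloid markers, 13 were at least 2-fold on the positive side of the Th1 array and 0 on the negative side. Their median was 1.80 and their range 0.028 to 2.98. Fcer1g lay at 2.98, Lyz1 at 2.97, Tyrobp at 2.52 and Mpeg1 at 2.50. All 10 mast cell and basophil markers were at least 2-fold positive on the Th1 array, from 1.40 to 3.31, with Prss34 at 3.31 and Mcpt8 at 2.996. On the Th17 array the counts were 6 positive and 2 negative of 15 (median 0.56, range −2.04 to 2.14) and 4 positive of 10 (median 0.68). Of the myeloid markers, S100a9 at 2.14, C1qb at 2.01 and C1qc at 1.66 were highest there, and Cd14 at −2.04 lowest, and of the mast cell and basophil markers, Kit at 2.31 and Tpsb2 at 2.27 were highest. Of 10 genes listed as stromal and endothelial markers, 2 were positive and 2 negative on the Th1 array and 2 positive on the Th17 array. Epcam at 3.02 and 2.30 and Krt18 at −2.43 and −0.43 are epithelial genes in that list. The others at least 2-fold apart were Pecam1 at 1.07 and 1.08 and Dcn at −1.52 on the Th1 array. Of 7 B cell markers, 1 was at least 2-fold apart, Cr2 at −1.12 and −1.25. Of 10 T cell markers, 4 were negative on the Th1 array (median −0.76) and 5 negative and 1 positive on the Th17 array (median −0.54), with Cd3d at −1.43 and −1.0. Of 8 NK and CD8 T cell markers, 4 were negative on the Th1 array, Klrc1 (−2.49), Klra8 (−1.74), Klrd1 (−1.46) and Klrk1 (−1.17). The 1 positive there was Klrb1c at 3.22. On the Th17 array 1 was negative, Klrc1 at −2.17, and 1 positive, Klrb1c at 3.72. The part of other cells in the values of Ccl6, Ccl9, Ccl3, Ccl2, Ccl7 and Ccl8 was not tested.

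**Figure D3:**
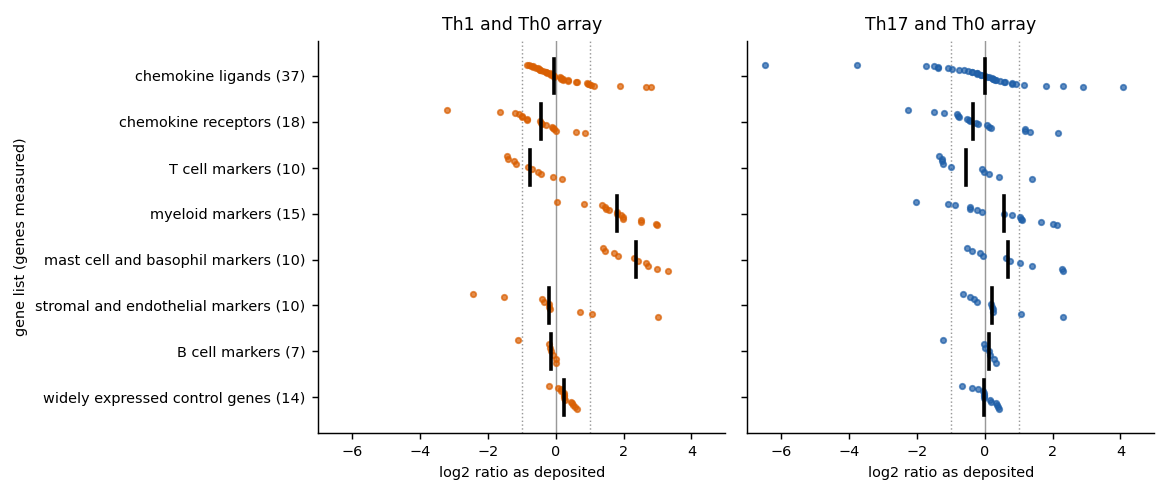
Log2 ratio, as deposited, of each measured gene of 8 lists on the Th1 and Th0 array (left) and the Th17 and Th0 array (right); points are genes and bars are medians. Myeloid markers (median 1.80) and mast cell and basophil markers (median 2.37) stand right of the other lists on the Th1 array, while the chemokine ligands spread to both sides on the Th17 array.

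Xcl1, which T and NK cells make and which attracts cross-presenting dendritic cells through Xcr1, lay at 0.97 on the Th1 array and 1.80 (3.47-fold) on the Th17 array. Its ratio on the Th17 array matched a weaker channel of 3 units, so that value may rest on very low signal. The intensities themselves are not in the table. It was the sole member at least 2-fold apart whose weaker channel matched 5 units or fewer.

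The interferon-inducible ligands of Cxcr3 were below 2-fold by gene value as deposited. Cxcl10 lay at −0.84 on the Th1 array and −0.10 on the Th17 array and Cxcl11 at −0.78 and −0.50. Cxcl9 lay at −0.38 and −0.61 as the mean of 2 probes that disagree, at −0.13 and −1.09 on the Th17 array. The lower of these probes matched a weaker channel of 3 units on the Th1 array. On the Th1 array all 3 lay on the Ifng side, and centring on the most repeated value moved them to 0.0057, 0.073 and 0.47. Centring on the control genes moved them the other way, to −1.09, −1.03 and −0.63, so that Cxcl10 and Cxcl11 passed 2-fold, and it took Cxcl10 to 1.01 in the difference. Their size and side on the Th1 array therefore depended on the centring.

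In all, 22 ligand genes were below 2-fold on both arrays and in the difference, from −0.84 (Cxcl10) to 0.91 (Ccl4) on the Th1 array and from −0.76 (Cxcl16) to 0.93 (Ccl4) on the Th17 array. For Cxcl16, the membrane-bound ligand of Cxcr6, the value hides probes that disagree: they gave −1.59 and 0.071 on the Th17 array. Cxcl12, the ligand of Cxcr4 that retains cells in bone marrow, had 4 probes from −1.01 to 1.62 on the Th17 array (SD 1.08). The lowest of them matched a weaker channel of 2 units, and the mean of 0.23 carries little. The median ligand lay at −0.061 on the Th1 array, 0.017 on the Th17 array and 0.059 in the difference, beside −0.076, −0.033 and 0.038 for all named genes.

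Receptor genes as a group lay lower than the ligands. Their median was −0.45 on the Th1 array and −0.34 on the Th17 array, and 15 of 18 were below 0 on the Th1 array (83.3%, against 57.4% of all named genes) and 11 on the Th17 array (61.1%, against 53.7%). With centring on the most repeated value the medians turned to 0.40 and 0.084, beside 0.77 and 0.39 for all named genes, so the receptor median stayed below that of all genes. In the difference the receptor median was 0.37, which turned to −0.050 under that centring, beside −0.38 for all genes.

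Of the 18 receptor genes, 4 reached 2-fold on the Th1 array (22.2%, against 10.2% of all named genes), all on the Ifng side. The array itself leans to that side, since 1211 of the 1784 named genes at least 2-fold apart were negative. Cxcr1, a relative and neighbour of the neutrophil receptor gene Cxcr2, lay furthest, at −3.21 (9.23-fold), against −0.51 on the Th17 array. Cxcr6, a receptor of effector and tissue-resident T cells, lay at −1.65 (3.14-fold) against 0.12. Ccr7 lay at −1.20 (2.30-fold) and Xcr1, the receptor of cross-presenting dendritic cells, at −1.07 (2.10-fold). The Th2 receptor Ccr8 and the gut-homing receptor Ccr9 lay just below 2-fold on the Th1 array, at −0.99 for both. Centring on the most repeated value left Cxcr1 (−2.36) as the 1 receptor at least 2-fold on the Ifng side. Centring on the median left 3, without Xcr1 (−0.96). Centring on the control genes gave 8, adding Ccr8 (−1.24), Ccr9 (−1.24), Ccr4 (−1.11) and Cxcr3 (−1.10). Of the 17493 named genes, 297, 989 and 2046 were on that side under these centrings, in the same order.

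On the Th17 array the receptors split. On the Il17a side Ccr7 lay at −2.25 (4.75-fold), Cxcr4, the widely expressed receptor for Cxcl12, at −1.49 (2.81-fold) and Ccr9 at −1.20 (2.30-fold), or −0.77 with centring on the most repeated value. On the opposite side Ccr2, the receptor of inflammatory monocytes and effector T cells, lay at 2.16 (4.46-fold) and Cxcr3 at 1.34 (2.54-fold). Cx3cr1, a receptor of monocytes and cytotoxic lymphocytes, lay at 1.18 (2.27-fold), and Cxcr2 at 1.18 as the mean of 2 probes, 0.68 and 1.68. Ccr6, the receptor named with the Th17 fate, lay at −0.071 on the Th1 array and −0.76 (1.69-fold) on the Th17 array, below 2-fold, and its 2 probes gave −0.62 and −0.89 on the latter. It was therefore on the Il17a side but much closer to 0 than its ligand.

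The difference set 6 of 18 receptor genes at least 2-fold apart (33.3%, against 8.15% of all named genes). Of these, 4 were positive (22.2% of receptors, against 4.53% of all named genes) and 2 negative (11.1%, against 3.61%). Cxcr1 (2.70), Ccr2 (2.22), Cxcr3 (2.19) and Cxcr6 (1.77) lay opposite to Il17a, on the side of Ifng (1.19) and Tbx21 (2.12) and also of the Th2 genes Gata3 (2.77), Il5 (1.46) and Il13 (1.03). Cxcr4 (−1.51) and Ccr7 (−1.05) lay on the Il17a side, and centring on the control genes took Ccr7 to −0.78, below 2-fold. For Cxcr3 the values were −0.84 on the Th1 array, on the Ifng side, and 1.34 on the Th17 array. Centring the Th1 array on the most repeated value moved its −0.84 to 0.0044, so that side is not firm. Shifts of the difference, from −0.42 to 0.27, were too small to turn its sign there. The 8 of 18 receptor genes below 2-fold on both arrays and in the difference ran from −0.99 (Ccr8) to −0.071 (Ccr6) on the Th1 array. On the Th17 array they ran from −0.82 (Ccr8) to 0.18 (Ccr1). As for the ligands, the share of all named genes below 2-fold in each comparison was not computed. Ccr4 lay at −0.86 and −0.44, Cxcr5, the follicular receptor, at −0.27 and −0.78, and Ccr10, Ccr3, Ccr1 and Ccr1l1 lay within that range.

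**Figure D4:**
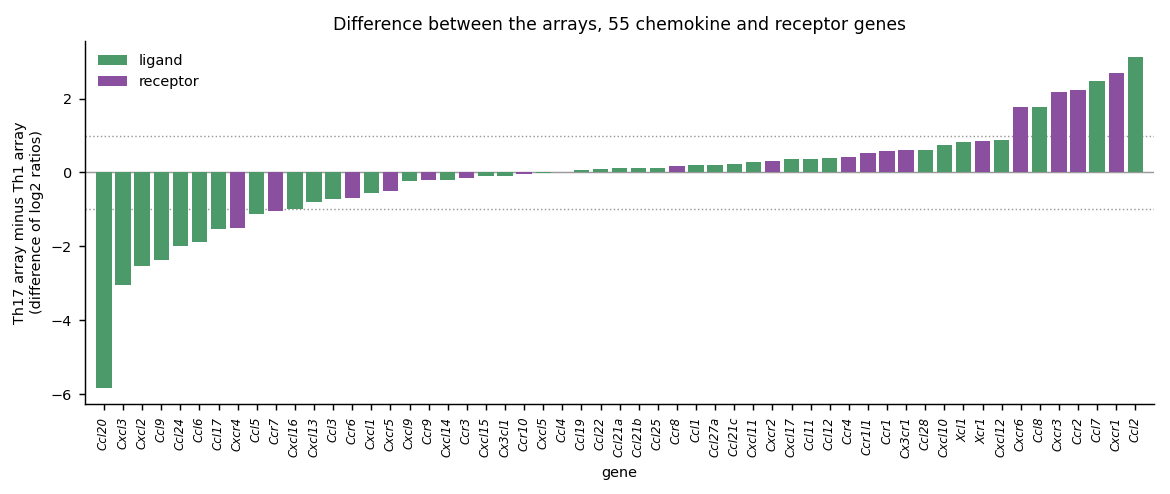
Th17 array minus Th1 array, as the difference of log2 ratios, for the 55 members in order, with ligands and receptors in different colours and dotted lines at 2-fold. Ligands fill most of the negative end, led by Ccl20 at −5.82, and receptors and the ligands Ccl2, Ccl7 and Ccl8 the positive end, led by Ccl2 at 3.12.

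Set beside their receptors, the ligands did not follow one pattern. Ccl20 and Ccr6 lay on the same side of the Th17 array, at −6.48 and −0.76. Ccr2 at 2.16 lay with its ligands Ccl2, Ccl7 and Ccl8, and with Ccl12 at 0.60. Ccr7 at −2.25 had ligands close to 0: Ccl19 at 0.21 and Ccl21a, Ccl21b and Ccl21c at 0.24, 0.052 and −0.24, 3 genes so alike that their probes may share signal. Cxcr3 at 1.34 lay opposite to Cxcl9, Cxcl10 and Cxcl11. Cxcr2 at 1.18 lay opposite to Cxcl1, Cxcl2 and Cxcl3 and on the side of Cxcl5 at 0.34 and Ppbp at 1.27. Cxcr4 at −1.49 lay opposite to Cxcl12. Xcl1 at 1.80 lay opposite to Xcr1 at −0.21, and on the Th1 array they were at 0.97 and −1.07. Ccr9 at −1.20 and its ligand Ccl25 at −0.37 (2 probes, SD 0.0075) lay on the same side, as did Cxcr5 at −0.78 and Cxcl13 at −1.36. Ccr4 at −0.44 lay on the side of Ccl17 and opposite to Ccl22 at 0.017. Ccr8 at −0.82 lay opposite to Ccl1 and Ccl8, and Cx3cr1 at 1.18 opposite to Cx3cl1 at −0.38. Ccr3 at −0.25 lay on the side of Ccl24 and Ccl5 and opposite to Ccl7 and Ccl11. Cxcr6 at 0.12 lay opposite to Cxcl16 at −0.76, whose probes disagree, and on the Th1 array they were at −1.65 and 0.23. On the Th1 array Cxcr1 at −3.21 lay opposite to Cxcl5 at 0.36 and on the side of Cxcl1 at −0.53. There Ccr1 at −0.39 lay opposite to Ccl9, Ccl6 and Ccl3 at 2.81, 2.67 and 1.90. It also lay opposite to Ccl5 at 0.15, and on the side of Ccl7 at −0.17. A ligand and its receptor need not be made by the same cell, and the arrays give 1 value for each.

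**Figure D5:**
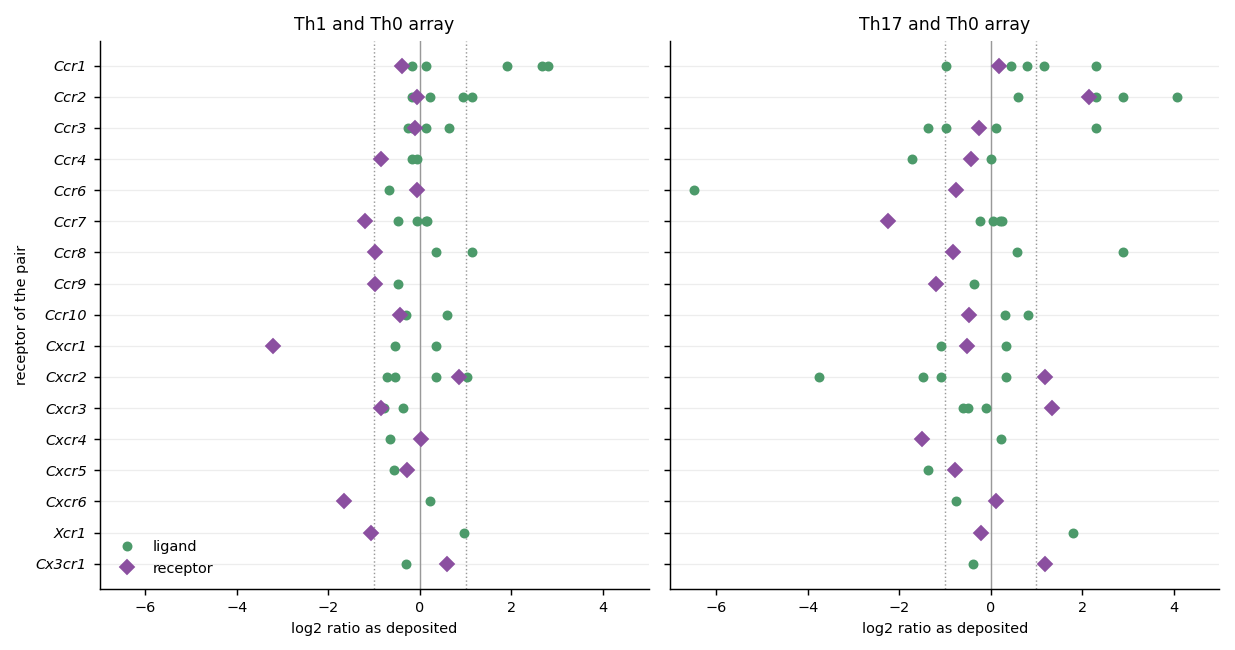
Log2 ratio, as deposited, of 17 receptor genes (diamonds) and of the ligands known to bind each (circles) on the Th1 and Th0 array (left) and the Th17 and Th0 array (right), 1 row per receptor. On the Th17 array Ccr2 lies among its ligands on the right, Ccr6 lies far right of Ccl20, and Cxcr2 lies right of Cxcl3, Cxcl2 and Cxcl1.

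Chemokine genes outside the symbol rule were few. Of 11 measured, 2 were at least 2-fold on the positive side of the Th1 array (3.28% of all named genes were). These were the platelet chemokines Pf4 at 1.49 and Ppbp at 1.38, whose values on the Th17 array were −0.57 and 1.27. The 4 atypical receptor genes, Ackr1 to Ackr4, whose proteins take up chemokines without G protein signalling, lay between −0.76 and 0.52 on the Th1 array and between −0.50 and 0.15 on the Th17 array. Ackr2 at −0.76 and Cmklr1, the chemerin receptor, at −0.72 were the lowest on the Th1 array.

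Genes of signalling behind the receptors were mostly below 2-fold, as most named genes were. Of 27 measured, 2 were at least 2-fold on the positive side of the Th1 array, the lipid kinase gene Pik3cg at 1.20 and the protein kinase C gene Prkcb at 1.30. On the Th17 array 1 was, the G protein subunit gene Gng2 at 1.06, with Ptk2b at 0.996 just below, and 0 were at least 2-fold negative on either array. Of all named genes, 3.28% were that far positive and 6.92% negative on the Th1 array, and 2.9% and 5.52% on the Th17 array. With 27 genes, the counts do not set the list apart from these shares. The medians were 0.050 and 0.21, beside −0.076 and −0.033 for all named genes.

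Among 14 genes that damp receptor signals, Rgs proteins that switch G proteins off were those at least 2-fold apart. Rgs18, an Rgs gene of platelets and myeloid cells, lay at 2.43 on the Th1 array and 1.16 on the Th17 array, Rgs16 at 1.22 and 1.31, and Rgs10 at −1.23 and −1.61. Rgs13 lay at −0.82 and 0.43, a difference of 1.24. The arrestin genes Arrb1 and Arrb2, named after their values were seen, lay between −0.036 and 0.021 on both arrays.

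Other chemoattractant receptors had 2 of 11 genes negative and 1 positive on the Th1 array, and 4 negative and 1 positive on the Th17 array. Of all named genes, 6.92% and 3.28% were on these sides of the Th1 array, and 5.52% and 2.9% of the Th17 array. Gpr15, a homing receptor for the large intestine, lay at −0.63 and −2.28, the formyl peptide receptor gene Fpr2 at 0.16 and −2.16, Gpr183, which senses oxysterols, at −1.79 and −0.44, and the complement receptor gene C3ar1 at 1.26 and 1.69.

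Of 11 adhesion genes that act with chemokine receptors in homing, 0 were 2-fold apart on the Th1 array, where 10.2% of all named genes were. So few genes cannot set that count apart from the share. On the Th17 array Itgae, the integrin chain CD103 that binds epithelium, lay at −2.19 over 7 probes, and Itga1, a chain of a collagen receptor, at 1.56. Itga4, a chain of integrins for gut and inflamed vessels, lay at −0.57 and −0.78, and Icam1, an adhesion ligand, at −0.77 and −0.66.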

How the data were processed

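The table deposited for the 2 arrays gave 36547 probes a value on each, and 0 value columns were left unused. The values were read as the authors' log2 ratios between channels. That unit comes from the numbers themselves, whose repeats lie apart by log2 of whole-number ratios; scanner software, background correction and normalisation are not given in the sources used here. Per the labels, 500 ng of total RNA was amplified and coupled to dye.

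Probe names came from the platform annotation, which can be old, updated through RefSeq (GRCm38.p6, for names, gene order and promoter windows). Of the probes, 26926 carried 1 gene, 203 several and 9418 none named here. Gene numbers matched 26774 and accessions 37 more, 115 stayed unmatched under their old symbol, and 30 probes took a new symbol, among them 1 probe of Ccl21b. Probes of several genes were left out, 3 of them with a member's symbol. A gene's value is the mean log2 value of its probes (Python 3.11.15, pandas 2.3.3, numpy 2.4.6; checked on simulated data). With 1 array per comparison no p-value was computed, and genes were counted at 2-fold or more. The number of arrays limits the precision. Promoter windows are the 250 bases before a RefSeq start. Neighbours are members with at most 3 other protein-coding genes between them. Very low signal, a weaker channel of 5 units or fewer, was sought by matching each ratio to whole-number ratios within a relative tolerance of 0.0001. Each ratio was taken from the most repeated value of its array (−0.8485 and −0.4263). Brighter channels can give the same ratio, so a match does not establish low signal.

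Members, lists and pairs were chosen with earlier results of these data known. Genes named are the markers Ccl20, Ccr6, Cxcr3, Ccr2 and Ccr7, each member 2-fold apart on an array or in the difference, the receptor and ligands of its pairs, and of other lists up to 4 genes with the largest absolute value; some further marker and T helper genes were named after their values were seen. Alternatives were centring, the averaging of probes, very low signal, the fold and the symbols.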

Additional observations from a re-analysis of the deposited data

Results flagged for a closer look

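Cxcl2, which attracts neutrophils through Cxcr2, stood out because it was at least 2-fold apart on opposite sides of the arrays, at 1.04 on the Th1 array and −1.49 on the Th17 array. The difference was −2.53. It was the 1 member of 55 with that pattern, it rests on 1 probe per array, and the difference was not tested. The share of all named genes with that pattern was not computed, so the count of 1 in 55 does not set the members apart. Centring on the control genes took its value on the Th1 array to 0.79, below 2-fold, so the pattern was lost there.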

How the results depend on the processing

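No paired analysis was possible because each comparison rests on 1 array, and no replicate could be left out. The alternatives moved the count of members at least 2-fold apart by no more than 1.5 times, with these exceptions. Centring on the most repeated value gave 18 in place of 9 on the Th1 array and moved the medians there to 0.79 for ligands and 0.40 for receptors. It also left 5212 of the 17493 named genes at least 2-fold positive and 297 negative on that array, with a median of 0.77. A 1.5-fold limit gave 25 on the Th1 array, 29 on the Th17 array and 27 in the difference, and a 3-fold limit gave 5 and 9 on the arrays. In the difference a 3-fold limit left 13 of 17. The shares of all named genes at the 1.5-fold and 3-fold limits were not computed, so these counts do not set the members apart. For the 48 named genes, 0 values at least 2-fold apart changed sign under any centring or averaging tried. For centring that was fixed in advance, since no shift exceeded 0.85. Of the values, 928 moved by less than the pooled probe SD and 54 by more. Of the 54, 48 were Th1 array values under centring on the most repeated value, which moved every gene there by the same 0.85. The remaining 6 came when the probe with the largest absolute value was taken. Those 6 belong to Cxcl12, Cxcl16 and Cxcr2, whose probes differ. Leaving out values matched to very low signal removed Xcl1 from the Th17 array and gave 18 in place of 19 there. The order of the ratio, the shared Th0 RNA and the dye effect on single genes were not tested.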
